A study of Mus musculus with 56 samples.

Results

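Podnl1, Ncan, Gm9696 and Wdr95 are 4 of the 25939 genes measured in mouse visceral adipose tissue (VAT), the fat depots of the abdominal cavity, and each stood higher under daytime-restricted feeding (DRF) than under nighttime-restricted feeding (NRF) at every time point sampled. They were chosen by that very pattern, as genes with the largest mean rise under DRF among those higher at all 7 time points, so the rise itself is described here without a test. Podnl1 ranked 1 with a rise of 2.53 ± 0.17 and Ncan ranked 2 with 2.17 ± 0.18 in log2(CPM + 1). The SE is that of a model over 28 mice per regimen. CPM are reads per 1e+06 of an effective library size, which was fitted from the deposited values and differs from the reads recovered. Gm9696 ranked 4 with 1.65 ± 0.16 and Wdr95 ranked 5 with 1.62 ± 0.13. Mogat2, an enzyme of triglyceride synthesis, lay between them at rank 3 with 1.70 and was not taken up. Hsd11b1, which regenerates active glucocorticoid in fat, was the first gene below the last member with 1.59. These ranks hold for log2(CPM + 1), and the order of the members changed with the scale. In log2(CPM + 0.1), Gm9696 (2.81) stood above Ncan (2.73). In log2(deposited value + 1), Gm9696 (2.03) stood above Podnl1 (1.42) and Ncan (1.30). A rise at all 7 time points with an adjusted p under 0.05 and a mean deposited value of at least 1 was held by 734 genes, 2.83% of those tested.

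The animals were female C57BL/6J mice, group housed on chow and a 12 h light and 12 h dark cycle, 9 weeks old at collection and kept for the final 7 days on DRF, with food in the light phase, or on NRF, the control, with food in the dark phase. Tissue was taken every 4 h from ZT0, lights on, to ZT24, with ZT0 and ZT24 as separate groups, from 4 mice at each of the 7 time points in each regimen, and each of the 56 libraries came from a single mouse. No genotype, drug or diet separates the groups, and since NRF is itself a restricted schedule there is no freely fed group. The whole tissue was extracted, so fewer cells of a type and less RNA per cell cannot be told apart.

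The deposited values held between 31.3 M and 41.5 M recovered reads per DRF library and between 34.6 M and 41.2 M per NRF library, where M is 1e+06 reads. The effective library sizes used for CPM ran from 31.8 M to 47.3 M. Markers of adipocytes were abundant in every library, with Adipoq, Plin1, Cidec, Lep and Fabp4 summing to between 8387 and 29412 CPM under DRF and between 14833 and 25628 CPM under NRF. Of the 5, Adipoq, adiponectin, fell by 0.31 ± 0.08 in log2(CPM + 1) under DRF (SE, adjusted p = 0.00515 by limma), Lep, leptin, rose by 0.60 ± 0.16 (adjusted p = 0.00506, but 0.217 with time point as a factor), and 3 did not pass. Among all genes, 11.4% were higher and 10.3% lower under DRF by limma. Their part in the levels of the 4 genes was not tested. The DRF libraries ZT0 replicate 4 and ZT8 replicate 1 stood apart, with 4598 and 239 CPM of uterine epithelial markers (Foxa2, Ltf, Muc1 and Cdh1) against a median of 1.07 CPM over the DRF libraries, and DRF ZT16 replicate 3 followed with 46.4 CPM. In its group of 4, the ZT0 library was the lowest in CPM for Podnl1 and Ncan, and the ZT8 library for Ncan, Gm9696 and Wdr95. The ZT0 library had 34503739 recovered reads and an effective size of 40.9 M. The ZT8 library had 31879522 recovered reads and an effective size of 43.1 M. Places in CPM can therefore differ from those per recovered read. Without the first 2 libraries the differences were 2.59 for Podnl1, 2.25 for Ncan, 1.71 for Gm9696 and 1.67 for Wdr95 in log2(CPM + 1), and without all 3 they were 2.57, 2.24, 1.69 and 1.68.

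Podnl1 encodes podocan-like protein, a secreted member of the small leucine-rich proteoglycan family, whose proteins bind collagen fibrils and growth factors in the extracellular matrix. Ncan encodes neurocan, a chondroitin sulfate proteoglycan of the lectican family that binds hyaluronan and is best known from the matrix around neurons. Wdr95 encodes a protein with WD repeats, a fold that serves as a platform for protein complexes, and Gm9696 is annotated as a transcribed unprocessed pseudogene. Feeding time is a strong timing cue for peripheral tissues, and in adipose tissue it acts on lipid storage and mobilisation, while the matrix around adipocytes is made largely by stromal cells.

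On the GRCm38 build, Podnl1 (ENSMUSG00000012889) lies on chromosome 8 from 84125989 to 84132527 on the plus strand, with 2 annotated transcripts and 3549 bases of merged exon. Ncan (ENSMUSG00000002341) lies on the same chromosome from 70093085 to 70120873 on the minus strand, with 1 transcript of 15 exons, 7195 bases of exon and the microRNA gene Mir7066 inside it. Gm9696 (ENSMUSG00000070465) runs from 59952309 to 59973594 on the plus strand of chromosome 3, with 2 transcripts and 3050 bases of exon. Wdr95 (ENSMUSG00000029658) spans 149528679 to 149611894 on the plus strand of chromosome 5, with 7 transcripts and 3477 bases of exon. The antisense gene Gm15997, from 149489056 to 149538030 on the minus strand, overlaps the first part of Wdr95, and because the library kit did not mark strand, reads of the pair cannot be told apart where they overlap.

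The longest transcripts of the 4 genes were compared with all annotated mouse transcripts to see which of them could share reads with a near-identical copy. Podnl1 and Wdr95 had no match outside themselves at an E-value of 1e-10. Ncan matched other genes over at most 232 bases, starting at its base 5388. Gm9696 matched C130079G13Rik, a protein-coding gene 14359 bases to its left from 59925214 to 59937949 on the same strand, at 88.0% identity over 1958 aligned bases, with a longest run of 197 identical bases. Since the reads were 150 bases long, a read that lies inside that run does not by itself tell the genes apart, although its mate may, and the values of Gm9696 are uncertain to that extent. C130079G13Rik was not analysed here. The stretch shown is a gap-free window of 90 bases inside the alignment and inside the coding part of C130079G13Rik, bases 1587 to 1676 of the Gm9696 transcript and 1214 to 1303 of the C130079G13Rik transcript, 5′ to 3′, from the GENCODE transcripts of GRCm38, with the 2 differing positions in capitals.
Gm9696: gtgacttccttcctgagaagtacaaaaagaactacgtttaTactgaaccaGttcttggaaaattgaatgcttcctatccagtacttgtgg
C130079G13Rik: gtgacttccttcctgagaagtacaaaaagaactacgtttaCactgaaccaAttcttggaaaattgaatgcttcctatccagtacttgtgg

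Of the 4 genes, only Ncan was matched in the RefSeq promoter table of GRCm38.p6. The 250 bases before the start in that table, chr8:70120845-70121094 on the minus strand, are shown 5′ to 3′ as the upstream sequence of the gene at rank 2. RefSeq starts the gene further in than the annotation used above, so 29 bases of the window lie inside the gene as given there.
Ncan: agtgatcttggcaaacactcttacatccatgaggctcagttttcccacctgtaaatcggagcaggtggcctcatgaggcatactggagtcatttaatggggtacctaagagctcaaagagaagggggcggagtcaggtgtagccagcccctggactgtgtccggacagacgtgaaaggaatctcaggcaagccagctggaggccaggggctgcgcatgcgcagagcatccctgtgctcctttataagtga
Exact matches on both strands were sought to CACGTG (E-box), TTATGTAA (D-box), TGACGTCA (CRE), GTAAACA (forkhead), the glucocorticoid response element, GAANNTTC (heat shock element core) and AGGTCA (nuclear receptor site). None of these letters occurred in the window, so no base is in capitals. Over the 32851 promoters of the table, windows of the same length held them in 6.02%, 0.819%, 1.55%, 3.17%, 0.00913%, 6.69% and 14.02% of cases, in the same order.

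Podnl1 under NRF was low from ZT4 to ZT12 and higher from ZT20 to ZT24 and at ZT0. The 4 mice in replicate order had 1.57, 5.79, 4.13 and 6.35 CPM at ZT0 and 2.06, 0.997, 0.669 and 1.04 CPM at ZT4. At ZT8 the NRF mice had 1.05, 0.402, 3.14 and 0.670 CPM of Podnl1, and at ZT12 0.582, 1.69, 1.34 and 1.65 CPM. From ZT16 on, Podnl1 stood at 1.33, 3.20, 1.08 and 4.28 CPM at ZT16, 2.43, 5.41, 3.56 and 4.59 CPM at ZT20 and 4.37, 1.83, 6.07 and 15.6 CPM at ZT24. From ZT4 to ZT12 only the third mouse of ZT8 and the first of ZT4 exceeded 2 CPM, while replicate 4 of ZT24 was far above every other NRF mouse.

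Under DRF, Podnl1 was at 7.57, 8.86, 11.9 and 7.10 CPM at ZT0 and at 20.1, 18.5, 26.02 and 24.3 CPM at ZT4. At ZT8 the values were 11.6, 11.5, 13.99 and 30.9 CPM, and at ZT12, the end of the light phase, they were 51.03, 20.9, 21.8 and 36.2 CPM. After lights off they were 26.9, 26.1, 29.99 and 40.3 CPM at ZT16, 8.81, 16.2, 17.8 and 6.13 CPM at ZT20 and 11.3, 9.62, 5.01 and 9.9997 CPM at ZT24. Every DRF mouse at ZT4, ZT8, ZT12 and ZT16 had at least 11.5 CPM, whereas those at ZT0, ZT20 and ZT24 reached down to 5.01 CPM.

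The Podnl1 groups did not overlap at 6 of the 7 time points. At ZT12 the lowest DRF mouse had 20.9 CPM and the highest NRF mouse 1.69 CPM, and the group means of 32.5 ± 14.2 and 1.32 ± 0.51 CPM (SD, n = 4 each) differed 24.7-fold. The gap was narrowest at ZT24, where the means of 8.99 ± 2.75 and 6.96 ± 6.00 CPM (SD, n = 4 each) differed 1.29-fold and the groups overlapped. Replicate 4 of NRF ZT24 set that value, since without it the NRF mean was 4.09 CPM and the fold 2.20. The ZT8 fold of 12.9 likewise became 24.1 without replicate 3 of NRF ZT8. Of the 28 NRF mice, 23 lay below the lowest DRF mouse. Over the 28 mice of a regimen, the fold of the mean CPM was 6.11.

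**Figure D1:**
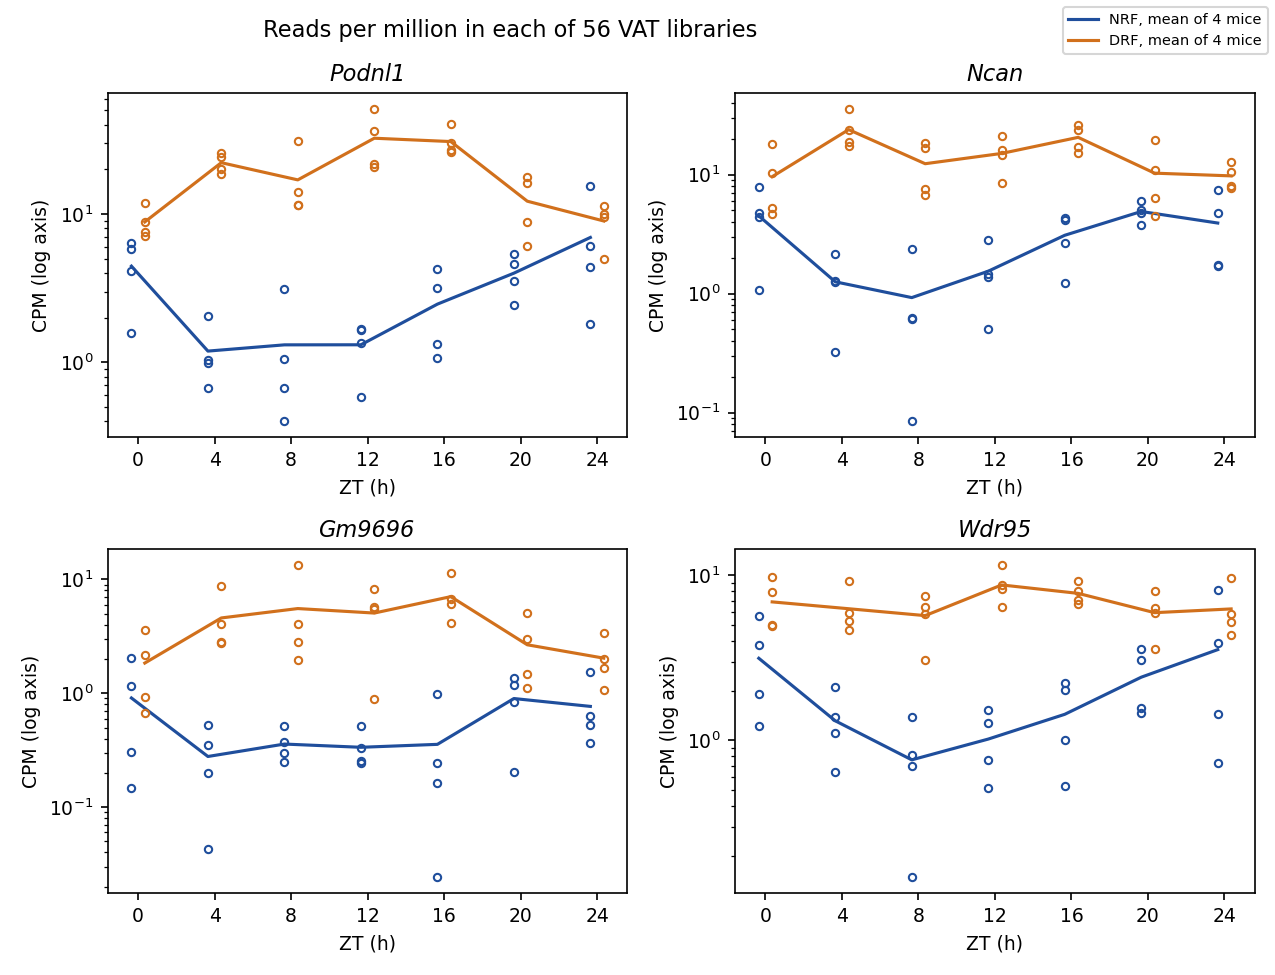
Reads per 1e+06 of effective library size (CPM) of the 4 genes (vertical log axis) against ZT in hours, 1 panel per gene, with an open circle for each mouse and a line through the mean of 4 mice, NRF in blue and DRF in orange. The DRF line lies above the NRF line at all 7 time points in each panel, with the widest gaps from ZT4 to ZT16, and the NRF circle at 15.6 CPM in the Podnl1 panel is replicate 4 of ZT24.

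Ncan under NRF likewise had its lowest group mean in the light phase, at ZT8. The mice at ZT0 had 1.08, 4.73, 7.81 and 4.40 CPM and those at ZT4 2.16, 1.29, 0.322 and 1.26 CPM. At ZT8 Ncan was at 0.606, 0.0846, 2.39 and 0.621 CPM, the lowest value coming from 4 reads in replicate 2, and at ZT12 it was at 0.507, 1.46, 1.37 and 2.84 CPM. From lights off to the next lights on, the NRF mice had 1.23, 4.32, 2.64 and 4.18 CPM at ZT16, 3.74, 5.98, 5.09 and 4.80 CPM at ZT20 and 1.70, 1.75, 4.77 and 7.47 CPM at ZT24. ZT20 was the tightest NRF group relative to its mean and had the highest mean, 4.90 ± 0.92 CPM (SD, n = 4).

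Ncan under DRF varied widely between mice at ZT0, with 18.2, 10.3, 5.27 and 4.70 CPM at ZT0 and 17.5, 23.7, 18.9 and 35.6 CPM at ZT4. The 4 mice of ZT8 had 6.73, 7.51, 18.4 and 16.8 CPM, and those of ZT12 21.1, 14.6, 16.1 and 8.51 CPM. After lights off, Ncan was at 23.9, 15.2, 17.2 and 26.1 CPM at ZT16, 4.51, 10.9, 19.4 and 6.34 CPM at ZT20 and 12.8, 7.71, 8.04 and 10.5 CPM at ZT24. The highest DRF mean came at ZT4, 23.9 ± 8.21 CPM (SD, n = 4), whereas that of Podnl1 came at ZT12.

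At ZT4 the DRF and NRF means of Ncan differed 19.0-fold, with 17.5 CPM in the lowest DRF and 2.16 CPM in the highest NRF mouse. The ratio then stood at 13.4 at ZT8, 9.77 at ZT12 and 6.66 at ZT16, and at 2.10 at ZT20. Replicate 3 of NRF ZT8 carried most of its group, and without it the ZT8 fold was 28.3. Ncan overlapped between the regimens at ZT0 and ZT20 and not at the other 5 time points, although at ZT24 the lowest DRF mouse, 7.71 CPM, was barely above the highest NRF mouse, 7.47 CPM. The fold of the mean over 28 mice was 5.04, and 21 of the 28 DRF mice exceeded every NRF mouse.

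Gm9696 had the fewest reads of the 4, with 1 to 79 reads in an NRF library and 24 to 489 in a DRF library. Its NRF values were 0.147, 2.03, 1.15 and 0.302 CPM at ZT0, 0.348, 0.524, 0.198 and 0.0426 CPM at ZT4 and 0.373, 0.296, 0.514 and 0.248 CPM at ZT8. At ZT12 they were 0.329, 0.256, 0.242 and 0.514 CPM and at ZT16 0.0242, 0.164, 0.243 and 0.992 CPM. Towards the end of the cycle they were 0.205, 1.17, 1.37 and 0.844 CPM at ZT20 and 0.524, 0.365, 0.637 and 1.54 CPM at ZT24. Mice above 1 CPM under NRF were found at ZT0, ZT20 and ZT24 and at no other time.

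Gm9696 at DRF stood at 3.61, 2.16, 0.669 and 0.930 CPM at ZT0, 2.76, 4.03, 2.83 and 8.72 CPM at ZT4 and 1.97, 2.83, 13.4 and 4.03 CPM at ZT8. The ZT12 mice had 8.18, 5.46, 5.74 and 0.898 CPM and the ZT16 mice 11.3, 4.12, 6.09 and 6.76 CPM. Towards lights on, values of 1.47, 3.02, 5.06 and 1.12 CPM at ZT20 and 1.66, 1.07, 3.41 and 2.0 CPM at ZT24 were measured. Single mice stood far from their group, as replicate 3 of ZT8 on the high side and replicate 4 of ZT12 on the low side. The regimens were apart from ZT4 to ZT16, with folds of 16.5, 15.5, 15.1 and 19.9 in that order, and overlapped at ZT0, ZT20 and ZT24, with folds of 2.03, 2.97 and 2.65. The fold at ZT16 rested on few reads and was 49.1 without replicate 4 of NRF, the ZT8 fold was 8.22 without replicate 3 of DRF, the ZT0 fold was 3.45 without replicate 2 of NRF, and the ZT24 fold was 3.998 without replicate 4 of NRF. Over all mice the mean CPM differed 7.38-fold.

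Wdr95 varied least between mice under DRF, with a within-group SD of 0.38 in log2(CPM + 1) against 0.48 for Podnl1, 0.60 for Ncan and 0.74 for Gm9696. Its DRF mice had 9.76, 7.93, 4.93 and 5.02 CPM at ZT0, 4.68, 5.31, 5.94 and 9.19 CPM at ZT4 and 3.06, 6.43, 7.49 and 5.85 CPM at ZT8. Around lights off they had 11.5, 8.77, 8.25 and 6.46 CPM at ZT12 and 8.0, 7.15, 6.74 and 9.25 CPM at ZT16. At ZT20 and ZT24 the DRF values were 3.59, 5.88, 8.0 and 6.31 CPM and 4.38, 5.22, 9.59 and 5.87 CPM. The group means stayed between 5.71 and 8.76 CPM, a ratio of 1.53 between the highest and the lowest.

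Wdr95 under NRF ran from 1.23, 5.66, 1.91 and 3.79 CPM at ZT0 to 2.11, 1.39, 0.645 and 1.11 CPM at ZT4. It stood at 0.816, 0.148, 1.39 and 0.695 CPM at ZT8 and 0.760, 0.511, 1.53 and 1.27 CPM at ZT12. The later values were 0.532, 2.22, 0.998 and 2.01 CPM at ZT16, 1.56, 3.59, 1.46 and 3.06 CPM at ZT20 and 1.45, 0.730, 3.91 and 8.11 CPM at ZT24. In contrast to DRF, the NRF means spanned a ratio of 4.66, from 0.762 CPM at ZT8 to 3.55 CPM at ZT24. The regimens differed 8.60-fold at ZT12, the widest gap, and 1.77-fold at ZT24, the narrowest, which was 3.09-fold without replicate 4 of NRF ZT24. Wdr95 overlapped at ZT0 and ZT24 only, but at ZT20 the lowest DRF and the highest NRF mouse, 3.590 and 3.586 CPM, were nearly equal. The fold of the mean over 28 mice was 3.49.

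All 4 genes were thus apart between the regimens at ZT4, ZT8, ZT12 and ZT16, where every DRF mouse exceeded every NRF mouse. Among all genes tested, such a lack of overlap in this direction was seen in 12.2%, 5.95%, 11.8% and 9.98% at those times. At ZT0 it held for Podnl1 alone (5.14% of all genes), at ZT20 for Podnl1 and Wdr95 (9.6%) and at ZT24 for Ncan alone (8.12%). These counts follow from the choice of the genes. The lowest DRF group mean was above the highest NRF group mean in each gene, by 1.27 times in Podnl1, 1.96 in Ncan, 2.03 in Gm9696 and 1.61 in Wdr95. The ratio of Podnl1 was 1.99 without replicate 4 of NRF ZT24.

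**Figure D2:**
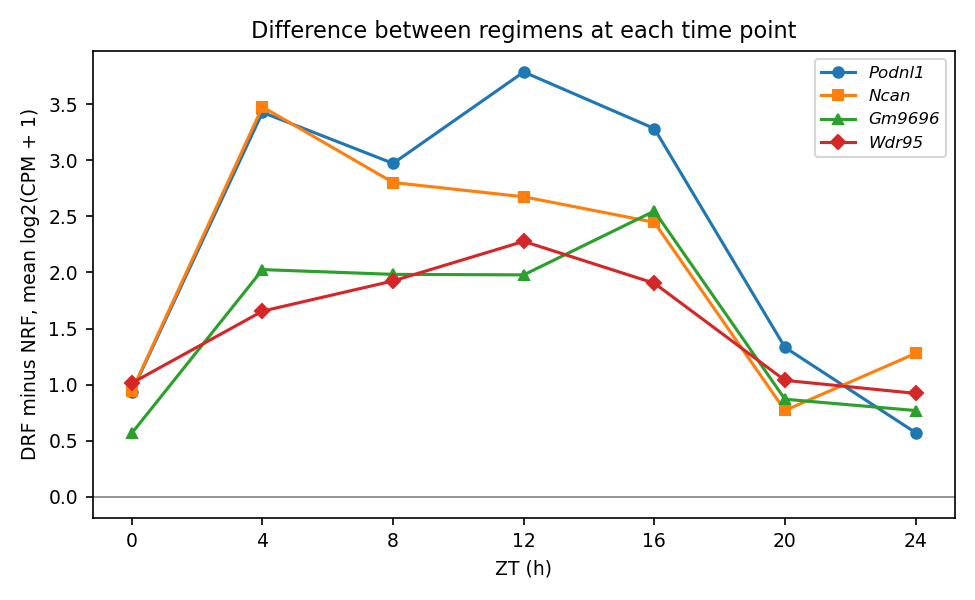
Mean log2(CPM + 1) under DRF minus that under NRF (vertical axis) against ZT in hours, with 1 line per gene and each point from 4 mice per regimen. All 28 points lie above 0, from 0.57 to 3.79, and each gene is lower at ZT0, ZT20 and ZT24 than at ZT4 to ZT16.

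Whether the 4 genes varied over 24 h was tested within each regimen, which the choice of the genes did not use, by combining JTK_CYCLE and Lomb-Scargle over 28 mice with Benjamini-Hochberg adjustment over 25935 genes. Under NRF, 2 of the 4 passed an adjusted p of 0.05, against 25% of all genes, and under DRF 1 of the 4 passed, against 13.4%. Podnl1 was rhythmic in both regimens and Ncan under NRF. Wdr95 and Gm9696 did not pass in either regimen by this test.

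Podnl1 had an adjusted p of 0.00584 under NRF and 0.00281 under DRF by this combined test. Its fitted cosine in log2(CPM + 1) had an amplitude of 0.81 ± 0.17 and a peak at ZT 21.3 ± 0.84 h (SE, 28 mice) under NRF. Under DRF the amplitude was 0.77 ± 0.15 and the peak at ZT 12.0 ± 0.86 h. The highest group mean was 5.83 times the lowest under NRF and 3.67 times under DRF. Single mice set the NRF ratio, which was 3.74 without replicate 4 of ZT24 and 9.85 without replicate 3 of ZT8. With a replicate number left out, the NRF call held without replicate 1 (0.0264) and replicate 3 (0.0109) and was lost without replicate 2 (0.196) and replicate 4 (0.198). The DRF call held without replicate 2 (0.0355) and replicate 3 (0.0292) and was lost without replicate 1 (0.0768) and replicate 4 (0.140). Without the ZT24 libraries the NRF call held (0.0150) and the DRF call was lost (0.0900). Leaving out a replicate number also cut the genes passing from 6488 to between 3785 and 5093 under NRF and from 3467 to between 1490 and 2221 under DRF.

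Ncan had an adjusted p of 0.000807 under NRF by the combined test, with an amplitude of 0.89 ± 0.17 in log2(CPM + 1) and a peak at ZT 20.2 ± 0.68 h (SE, 28 mice). The call was lost without replicate 2, at 0.141. Under DRF its adjusted p was 1, with an amplitude of 0.33 ± 0.19. Whether the Ncan rhythm differed between the regimens was not tested, since the contrast between regimens chose the genes.

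Wdr95 had an adjusted p of 0.110 under NRF, with an amplitude of 0.57 ± 0.15 in log2(CPM + 1) and a peak at ZT 22.0 ± 1.1 h (SE, 28 mice). The limma F test of the cosine terms, an alternative, gave 0.000862 for it, and its alternatives ran from there to 1. Its DRF amplitude was 0.18 ± 0.10 with an adjusted p of 1 by the combined test. Gm9696 had adjusted p of 1 under NRF and 0.338 under DRF, with amplitudes of 0.25 ± 0.10 and 0.57 ± 0.19, and limma gave 0.00817 for the DRF course, whose alternatives ran from there to 1. The fitted peaks of the 4 genes lay between ZT 20.2 and 22.0 h under NRF and between ZT 10.3 and 14.4 h under DRF, a description that includes genes which did not pass. The ends of the DRF range were poorly set, Ncan with an SE of 2.35 h and Wdr95 with 2.28 h. The cosine took up a share of 0.11 of the variance in each. The DRF means of Ncan were 23.9 CPM at ZT4, 12.4 at ZT8, 15.1 at ZT12 and 20.6 at ZT16, so its fitted peak lay in a dip.

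ZT0 and ZT24 are the same clock time in different mice, and they were compared in each of the 4 genes. Over 8 exact two-sided permutation tests of 4 against 4 mice, the raw p ran from 0.571 to 1 and every adjusted p was 1, where the smallest raw p the design allows is 0.0286. After adjustment a difference at that limit would pass only if most of the 8 comparisons stood at it. A change in 1 gene alone, or in a few comparisons, could therefore not have been called. The widest of the 8 differences was that of Podnl1 under NRF, 0.36 higher in log2(CPM + 1) at ZT24, where replicate 4 stood at 15.6 CPM.

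Levels can be set side by side between genes only per length of exon, for which the recovered reads were divided by exon length and scaled to a common total per library (TPM). Under DRF the median over 28 mice was 14.2 TPM for Podnl1 (4.16 to 45.2), 6.84 for Ncan (2.11 to 13.8), 5.88 for Wdr95 (3.54 to 10.4) and 3.17 for Gm9696 (0.632 to 13.002). Neighbours in this order overlapped over mice, and Ncan and Wdr95 were almost level. Under NRF the medians were 1.76, 1.03, 1.32 and 0.376 TPM in the same order of genes, so Wdr95 lay above Ncan there. Podnl1 thus moved from above 47.2% of all genes under NRF to above 72.6% under DRF in the order of median TPM, and Gm9696 from 31.0% to 53.7%. Ncan went from 41.6% to 62.3% and Wdr95 from 44.2% to 60.4% on that scale.

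Mice that were high for one of the 4 genes at their time point tended to be high for another, and how closely depended on the pair and the regimen. After the mean of each of the 14 groups was subtracted, Pearson's r of log2(CPM + 1) over 28 NRF mice ran from 0.59 for Gm9696 with Wdr95 to 0.87 for Podnl1 with Wdr95. Over 28 DRF mice it ran from 0.08 for Podnl1 with Wdr95 and 0.10 for Podnl1 with Gm9696 to 0.82 for Ncan with Gm9696. Podnl1 with Ncan had r of 0.84 under NRF and 0.44 under DRF. Under DRF, Ncan, Gm9696 and Wdr95 went together, with r of 0.70 to 0.82, and Podnl1 did so least. The points share libraries and their depth, r is given as a description, and the difference in r between regimens was not tested.

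**Figure D3:**
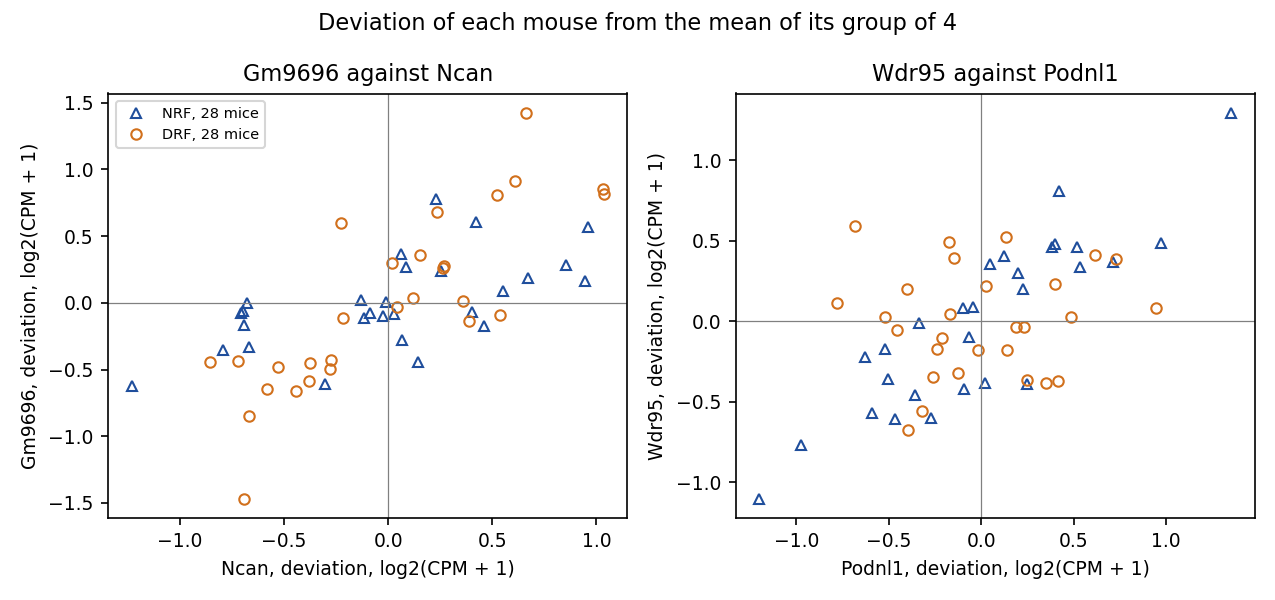
Deviation of each mouse from the mean of its group of 4, in log2(CPM + 1), for Gm9696 against Ncan (left) and Wdr95 against Podnl1 (right), with blue triangles for 28 NRF mice and orange circles for 28 DRF mice. Gm9696 rises with Ncan in both regimens, with r of 0.82 under DRF, whereas Wdr95 rises with Podnl1 under NRF (r of 0.87) and shows no clear slope under DRF (r of 0.08).

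Among 17282 other genes with a mean of at least 10 reads, the 3 whose course over the 56 libraries was most like each member were named, with r of log2(CPM + 1) as the measure of likeness. This r includes the difference between regimens by which the 4 genes were chosen, so it partly restates that choice. For Podnl1 they were Ncan (r = 0.92), Dmpk (0.90), the myotonic dystrophy protein kinase, and the long noncoding RNA 2610028E06Rik (0.90). Those of Ncan were Podnl1 (0.92), Mogat2 (0.91) and Dmpk (0.90). Gm9696 was closest to Ncan (0.88), 2610028E06Rik (0.83) and Podnl1 (0.83), and Wdr95 to the long noncoding RNA Gm48371 (0.91), Dmpk (0.91) and Ncan (0.90). With the group means subtracted, r fell to between 0.28 and 0.80 over these pairs, Mogat2 with Ncan being the closest. Dmpk averaged 350 CPM under DRF and 165 CPM under NRF and did not pass the combined rhythm test in either regimen, each with an adjusted p of 1.

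The relatives of Podnl1 went the other way or did not pass. Of the 16 other small leucine-rich proteoglycans listed, 6 fell under DRF and 0 rose by limma with Benjamini-Hochberg adjustment over all genes, against 10.3% of all genes lower and 11.4% higher. Before adjustment, 7 were lower and 0 higher at p under 0.05. Podn, the podocan gene nearest in kind to Podnl1, fell by 0.79 ± 0.08 in log2(CPM + 1) (SE, adjusted p = 7.46e-11 by limma), from a mean of 64.8 CPM under NRF to 37.7 CPM under DRF. Lum, lumican, a regulator of collagen fibril thickness, fell by 0.61 ± 0.09 (adjusted p = 1.87e-06). Dcn, decorin, with a mean of 1710 CPM under NRF and 1268 CPM under DRF, fell by 0.43 ± 0.07 (adjusted p = 8.45e-06). Of the remaining genes, Ecm2 fell by 0.49, Optc fell by 0.46 and Ogn, osteoglycin, fell by 0.36. The biglycan gene Bgn differed by 0.05 ± 0.08 and Fmod, fibromodulin, by -0.03 ± 0.08, neither past the threshold. The median of the 16 was -0.08 beside -3.65e-04 over all genes.

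Some markers of progenitors and fibroblasts, cells in which many of these proteoglycans are made, fell as well. Of Pdgfra, Pi16, Dpp4, Dpt and Col1a1, 3 fell, beside 10.3% of all genes, Pdgfra with a difference of -0.41, Dpt with -0.30 and Dpp4 with -0.25 in log2(CPM + 1), with summed levels of 768 to 1305 CPM under DRF and 858 to 1562 CPM under NRF. The Dpp4 call was lost without replicate 1 (adjusted p = 0.0890 by limma) and without replicate 2 (0.147). Their part in the fall of the proteoglycans was not tested.

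**Figure D4:**
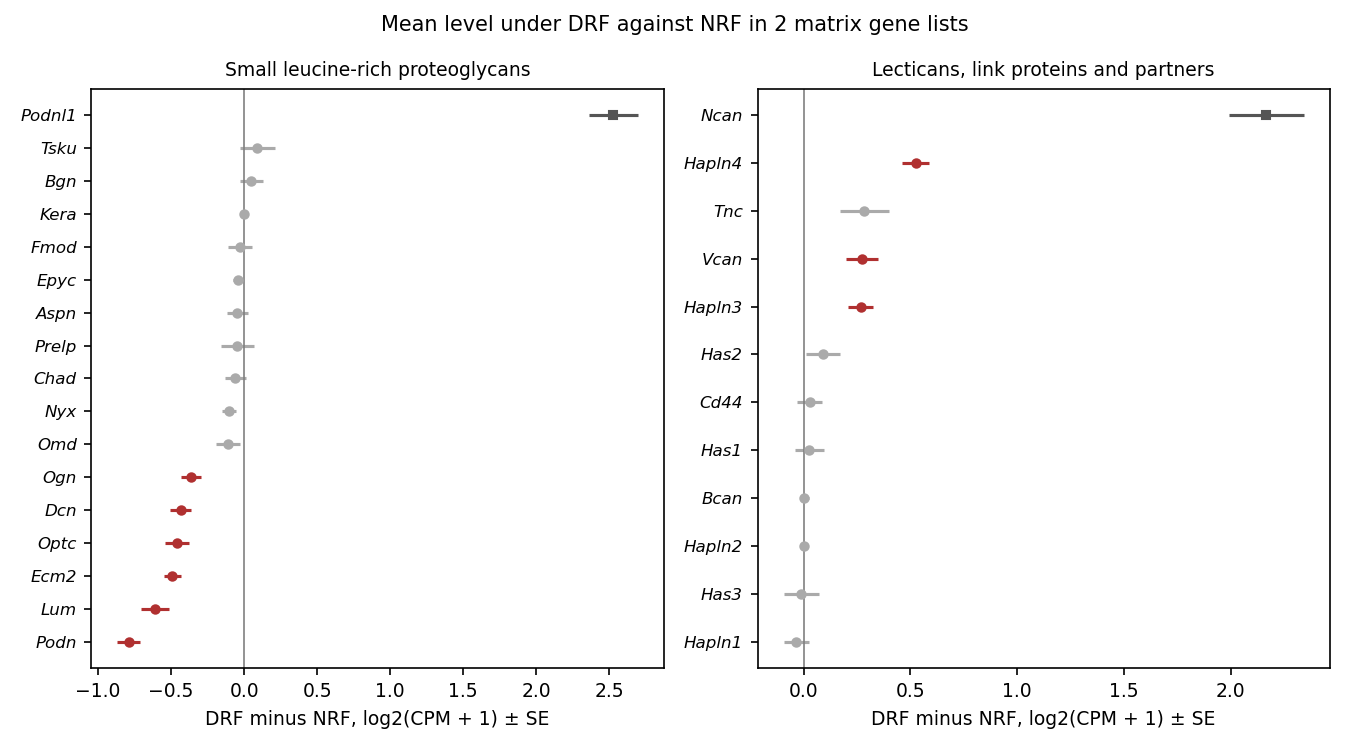
DRF minus NRF difference of the mean level in log2(CPM + 1) with its SE (horizontal axis) for the small leucine-rich proteoglycans (left) and for lecticans, link proteins and their partners (right), over 28 mice per regimen. Red circles passed an adjusted p of 0.05, grey circles did not, and the dark squares are Podnl1 and Ncan, which were chosen for their rise, at 2.53 and 2.17 while the other genes lie between -0.79 and 0.53.

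Some partners of Ncan rose as well, by less. Of 11 other genes for lecticans, link proteins and partners analysed here, 3 rose under DRF and 0 fell by limma, beside 11.4% higher and 10.3% lower among all genes, with 4 higher and 0 lower before adjustment at p under 0.05. The 3 became 2 with time point as a factor or without replicate 2, where Vcan was lost, and 4 with the replicate block, without the ZT24 libraries or among genes with a mean of at least 10 reads. Hapln4, a link protein that ties lecticans to hyaluronan, rose by 0.53 ± 0.06 in log2(CPM + 1) (SE, adjusted p = 1.83e-08), from a mean of 0.216 to 0.750 CPM. Vcan, versican, the main lectican of soft tissues, rose by 0.27 ± 0.08 (adjusted p = 0.00612), with 26.6 CPM under DRF and 23.6 CPM under NRF, and was higher at 4 of the 7 time points. Its difference was 0.19 with time point as a factor (adjusted p = 0.181) and 0.22 without replicate 2 (adjusted p = 0.0601). Hapln3, another link protein, rose by 0.27 ± 0.06 (adjusted p = 4.78e-04). Bcan, the brain lectican, was at 0.115 CPM under DRF and 0.114 CPM under NRF, and Hapln1, Cd44, the hyaluronan receptor, and the hyaluronan synthases Has1, Has2 and Has3 did not pass. Acan and Tnr were not analysed here. The median of the 11 was 0.03.

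Of 7 proteases that can cut lecticans, 2 rose and 1 fell, beside 11.4% higher and 10.3% lower among all genes. Adamts4 rose by 0.50 ± 0.10 in log2(CPM + 1) (SE, adjusted p = 1.66e-04 by limma) and Adamts9 by 0.44 ± 0.09 (adjusted p = 2.02e-04), while Adamts15 fell by 0.43 ± 0.07 (adjusted p = 2.65e-06). Adamts4 was higher at 5 of the 7 time points and Adamts9 at 4. The median of the 7 proteases was 0.18. Of 19 genes of chondroitin sulfate synthesis, which makes the sugar chains that neurocan carries, 2 rose and 2 fell, near the shares of all genes, with a median of -0.00101. Of the sulfotransferase genes, Chst13 rose by 0.27 ± 0.07 (adjusted p = 0.00150) and Chst3 fell by 0.29 ± 0.05 (adjusted p = 7.73e-05). Chst13 was higher at only 3 of the 7 time points. Its adjusted p by limma was 0.109 with time point as a factor and 0.0593 without replicate 2. B4galt7, of the linker region, was higher by 0.09 and Dse, the epimerase of dermatan sulfate, fell by 0.13. These counts were the least stable, at 0 higher with time point as a factor or without replicate 2 and at 1 lower without replicates 2 or 4.

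The chromosome neighbours of the 4 genes were examined for a rise of the same kind, with the 3 nearest genes of the table on each side. Of 24 neighbours, 4 rose and 2 fell by limma, beside 11.4% higher and 10.3% lower among all genes, so the counts lay near the background. Around Podnl1, 0 of 6 passed and 1 of 6 had an unadjusted p under 0.05. Cc2d1a, which runs towards Podnl1 on the opposite strand and ends 300 bases from it, differed by 0.06 ± 0.03 in log2(CPM + 1), with 26.8 CPM under DRF and 26.0 CPM under NRF.

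Next to Ncan, 2 of 6 rose and 1 fell. Hapln4 is itself the nearest gene, on the opposite strand with its end 2222 bases from the end of Ncan, and had a mean of 18.0 reads per library. Its level followed Ncan over the 56 libraries with r of 0.81, and with r of 0.60 after group means were subtracted. Libraries without strand count reads of either strand for it, and the part of reads running past Ncan in the level of Hapln4 was not tested. Borcs8, of a complex that positions lysosomes, rose by 0.14 ± 0.03 in log2(CPM + 1) (adjusted p = 8.39e-04 by limma), and Sugp1, a splicing factor gene, fell by 0.14 ± 0.03 (adjusted p = 0.00157).

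Gm9696 lies among genes for arylacetamide deacetylase and its relatives. Aadac, the gene of that enzyme, 52122 bases to its right, rose by 0.70 ± 0.13 in log2(CPM + 1) (SE, adjusted p = 5.06e-05 by limma), from a median of 0.120 to 0.888 CPM, and followed Gm9696 with r of 0.69 over the 56 libraries and 0.55 within groups. Its NRF mean of 0.343 CPM was carried by replicate 4 of ZT24 at 6.23 CPM and was 0.125 CPM without it, where the difference was 0.78 ± 0.09. Gm8298, to the left, rose by 0.21 ± 0.05 (adjusted p = 0.00260). Its transcript matched that of Gm9696 at 79.8% identity over 846 bases, with a longest identical run of 37 bases, shorter than a read. Sucnr1, the succinate receptor gene, differed by 0.10 ± 0.11 and did not pass, and Mbnl1, a splicing regulator, fell by 0.13 ± 0.03 (adjusted p = 0.00442, but 0.0775 without replicate 4).

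Beside Wdr95, 0 of 6 genes passed, and 0 had an unadjusted p under 0.05 in limma. Hsph1, a chaperone gene of the heat shock response, runs towards Wdr95 on the opposite strand and ends 2392 bases from it. It was read at a mean of 71.4 CPM under DRF and 82.7 CPM under NRF, and its fitted difference in log2(CPM + 1) was 0.30 ± 0.18 (adjusted p = 0.259 by limma), the mean CPM and the log2 scale pointing opposite ways. Hsph1 was rhythmic under NRF with an adjusted p of 1.84e-08 by the combined test and under DRF with 0.0240, whereas its r with Wdr95 was 0.28, both over the 56 libraries and within groups.

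Markers of other cell types were read beside the 4 genes because neurocan is known from nerve tissue. S100b, a calcium-binding protein of Schwann cells, fell by 0.32 ± 0.07 in log2(CPM + 1) (SE, adjusted p = 8.88e-04 by limma) and lay between 0.789 and 2.56 CPM under DRF and between 1.18 and 3.72 CPM under NRF. Sox10, a transcription factor of Schwann cells, fell by 0.18 ± 0.05 (adjusted p = 0.00668, but 0.163 without replicate 4). The neuronal genes Snap25 and Tubb3 differed by 0.09 ± 0.06 and 0.03 ± 0.05 and did not pass. Central nervous system markers were near 0, Gfap and Bcan summing to 0.246 to 1.76 CPM under DRF and 0.273 to 1.46 CPM under NRF, while Olig2, Neurod6 and Gria2 were not analysed here. The cartilage marker Comp lay between 0.0290 and 0.783 CPM under DRF.

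Mesothelial markers fell in 3 of 5 (Wt1, Upk3b and Lrrn4), beside 10.3% of all genes, with sums of 191 to 565 CPM under DRF and 229 to 617 CPM under NRF. All 3 of these calls were lost without replicate 1 (adjusted p by limma of 0.0770 for Wt1, 0.280 for Upk3b and 0.111 for Lrrn4) and without replicate 2 (0.190, 0.393 and 0.182). Of the 4 ciliated epithelium markers, Tekt1, a protein of ciliary microtubules, rose by 0.92 ± 0.12 in log2(CPM + 1), and Foxj1, Ccdc39 and Ovgp1 did not pass, beside 11.4% of all genes higher. The 4 ovary markers held 1 that fell, Star. Uterine, lymph node, skeletal muscle and testis markers held 0 that passed, with 0, 1, 0 and 0 at an unadjusted p under 0.05 in limma. The part of these cell types in the levels of the 4 genes was not tested.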

How the data were processed

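RNA of VAT from 56 mice was sequenced by the authors as poly(A)-selected, 150-base paired-end libraries, and the submitters' processing notes name HISAT2 2.0.5, featureCounts 1.5.0-p3 and the mm10 build. What the authors deposited is a table named TPM with a value for each gene in each library, which is used here as a score because by its values it is log2(CPM + 1) divided by gene length and rescaled per library. With the GRCm38 exon lengths of GENCODE vM21, reads were recovered for 25935 of 25939 genes. For 76 of these no value lay in the range tested for whole reads, so their wholeness was not checked. All 1279600 tested values (up to 20000 reads) were whole to within 0.02, where 4% would be so by chance, a share that includes 892 genes whose length was taken from the values. The 4 unresolved genes were left out.

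Mean levels were compared in limma 3.58.1 (R 4.3.3) on log2(CPM + 1), which understates changes of low genes, with 24-h cosine and sine terms in each regimen, an intensity trend and Benjamini-Hochberg adjustment over all genes. Rhythms were tested on the deposited values by JTK_CYCLE and by Lomb-Scargle, their p-values joined as in MetaCycle by Fisher's method, written in Python 3.11.15 with scipy 1.17.1. Transcripts were compared with blastn 2.17.0. Groups were read from the labels, where a replicate number is only the name of a mouse. Programs were tested on simulated data. Alternatives covered scaling, pseudocount, filter, rhythm test, time terms, replicate block and libraries left out.

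The named genes are the 4 members, 4 matrix gene lists, 3 neighbours on each side, the 3 genes most alike, cell type markers and the genes ranked between and just after the members. Members and lists were chosen with earlier results of these data known. Depth limits Gm9696 most, with as little as 1 read in a library. The count and summed level of 1 marker list are not reported here.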

Additional observations from a re-analysis of the deposited data

How the results depend on the processing

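The 4 genes were chosen for their rise in these same libraries, so the sign of the rise in alternative fits gives no independent support. The DRF minus NRF difference of each of the 4 genes stayed positive in all 56 alternative fits. It moved by less than the SD between mice, a yardstick wider than its SE, in 52 of them. The exceptions were Podnl1 (1.42) and Ncan (1.30) in log2(deposited value + 1), and Gm9696 (2.81) and Wdr95 (2.22) with a pseudocount of 0.1, scales on which values of a gene differ by construction. Without replicate 4 of NRF ZT24, an alternative chosen after seeing the data, the differences were 2.58, 2.20, 1.66 and 1.67 for Podnl1, Ncan, Gm9696 and Wdr95. Leaving out DRF ZT16 replicate 3 as well as the 2 DRF libraries that stood apart was likewise chosen after seeing the data. Median-ratio scaling shifted the median gene by 0.0026. Of the 28 folds at single time points, 8 moved over 1.5 times on leaving out 1 library, and the lowest became 1.036.

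Lomb-Scargle alone passed 0 genes in either regimen after adjustment (4305 under NRF and 2085 under DRF at an unadjusted p under 0.05), with Podnl1 at 0.326 under NRF and 0.613 under DRF and Ncan at 0.181 under NRF. The limma F test passed 6929 genes under DRF and called Wdr95 under NRF (0.000862) and Gm9696 under DRF (0.00817). Without the ZT24 libraries 2275 genes passed under DRF and Podnl1 stood at 0.0900. Leaving out each replicate number gave 3785 to 5093 genes under NRF and 1490 to 2221 under DRF, with adjusted p of 0.0109 to 0.198 for Podnl1 and 6.69e-04 to 0.141 for Ncan under NRF and of 0.0292 to 0.140 for Podnl1 under DRF. Without replicate 4 of NRF ZT24, 6347 genes passed under NRF, Podnl1 at 0.00499. Without the DRF libraries ZT8 replicate 1 and ZT0 replicate 4, 4547 passed under DRF, Podnl1 at 0.00224. The cause of these losses beyond the smaller number of mice was not tested.

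Leaving out each replicate number, 1699 to 2139 genes were lower under DRF at the mean level (2667 with all mice, and 3715 without the 2 DRF libraries that stood apart). Genes of chondroitin sulfate synthesis numbered 0 with time point as a factor and 1 without the ZT24 libraries on the higher side, 3 higher and 1 lower without those 2 libraries (also without the 3 DRF libraries highest in uterine markers), and 0 to 2 higher and 1 to 2 lower with a replicate number left out. Lower neighbours numbered 1 to 2. Of 35 named genes that passed, 0 reversed and 11 lost the call in some alternative (Vcan, Chst13, B4galt7, Dse, Mbnl1, Dpp4, Wt1, Upk3b, Lrrn4, Lep and Sox10).

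Whether mice of the same replicate number were linked was not tested. Deviations from the group means had a mean r of 0.040 between libraries of the same number and of -0.012 between the others. Over pairs of the same number and time point, r was over 0.1 in 7 of 28. With the replicate block, 3053 genes were higher and 2759 lower (2963 and 2667 without), and the differences of the 4 genes were as before, 2.53 for Podnl1.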
